A study of Mus musculus with 34 samples.

Results

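Axon guidance ligands and their receptors are the cues and sensors that steer growing axons, and 71 of their genes were followed here in mouse spinal cord after injury. The members were all genes whose symbol in the probe annotation marks a class 3 to 7 semaphorin, an A to D plexin, a neuropilin, a Slit, a Robo, an ephrin, an Eph receptor, a netrin, an Unc5 receptor or Dcc. They are 71 of the 18193 genes on the array and are carried by 156 probe sets. Where a gene had several probe sets, the one brightest on average over the 34 arrays was used, so no measured difference chose a member. Of the 71 members, 54 exceeded log2 4 on at least 4 arrays and were tested, among 11993 genes tested in all. The other 17 stayed dim, with 3.81 as the highest value of any of them on any array (Epha2), so nothing can be said of their change. Those 17 were Efna4, Epha1, Epha2, Epha6, Epha8, Ephb3, Ephb4, Ntn3, Ntn5, Plxna4os1, Robo3, Sema3f, Sema5b, Sema6c, Slit3, Unc5a and Unc5cl. Unc50, Unc5cl and Plxna4os1 entered by their symbol alone and are not guidance ligands or receptors.

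Guidance cues act in pairs of ligand and receptor. Secreted class 3 semaphorins bind neuropilins and signal through A-type plexins, while most membrane-bound semaphorins bind plexins directly. Slits repel axons through Robo receptors, ephrins on one cell engage Eph receptor tyrosine kinases on another, and netrins attract axons through Dcc or repel them through Unc5 receptors. After a spinal cord lesion several of these cues are made around the wound, and many of them also act on blood vessels and immune cells.

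The arrays came from KO and WT mice, where KO stands for a null allele of trkB.T1, the truncated isoform of the neurotrophin receptor gene Ntrk2, and WT for wild type. In each genotype cord was taken after sham surgery, which left the cord intact, and at 1, 3 and 7 days after spinal cord injury. KO cord gave 4 sham, 4 day 1, 5 day 3 and 4 day 7 arrays, and WT cord gave 4 sham, 5 day 1, 4 day 3 and 4 day 7 arrays. Strain, sex, age, the injury method, the cord segment and whether an array held 1 animal or a pool are not given in the sources used here. The p-values therefore reflect only how far these samples spread. The labels name no promoter or cell type for the null allele and no sorting of cells.

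Ntrk2 was read first as a check of the labels. A probe set that separated the genotypes read 3.12 to 4.94 on 16 of 17 KO arrays and 10.01 to 10.86 on the WT arrays, but 9.46 in the library labelled KO sham replicate 2. That library is kept under its label, and counts of members without it are given below. Other libraries stood apart by cell type markers: WT day 3 replicate 2 had a microglia and macrophage marker mean of 8.35 against 9.49 to 9.65 in the other WT day 3 arrays. KO day 3 replicates 3 and 4 had a neuron marker mean of 11.26 and 11.40 against 12.03 to 12.31 in the other KO day 3 arrays. Neuron markers averaged 12.88 in KO sham and 12.91 in WT sham cord, with 9 of 10 of them above the filter. Caudal Hox genes, which mark the level along the cord, averaged 8.82 ± 0.16 in KO sham and 6.92 ± 0.36 in WT sham cord (SD, n = 4 each), so the sham tissue of the genotypes also differed in this respect. The Hox mean also differed between injured and sham groups, at 8.53, 7.65 and 8.33 on days 1, 3 and 7 against 8.82 in sham KO cord, and at 8.28, 7.72 and 7.92 against 6.92 in sham WT cord. Skeletal muscle markers, which mark tissue outside the cord, averaged 9.68 in KO sham and 6.09 in WT sham cord and between 4.10 and 8.44 in the injured groups. The part of these differences in the injury results was not tested beyond a fit with the Hox mean as a covariate, under which 26 of the 213 injury calls of members did not pass. Array medians lay between 4.14 and 4.39.

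More guidance genes fell than rose after injury, at every time and in both genotypes. In KO cord 8 of 54 tested members rose and 26 fell at day 1, 13 rose and 31 fell at day 3, and 10 rose and 18 fell at day 7. In WT cord 10 rose and 27 fell at day 1, 13 rose and 26 fell at day 3, and 13 rose and 18 fell at day 7. Calls are limma's, at an adjusted p below 0.05 over all genes tested. Of all genes tested in KO cord, 23.7%, 30.9% and 23.5% rose and 27.3%, 38.8% and 31% fell at days 1, 3 and 7. Of all genes tested in WT cord, 27.1%, 29.5% and 25.8% rose and 32.5%, 37.4% and 33.3% fell. The fallen share of members was 48.1% in KO and 50% in WT cord at day 1, 57.4% in KO and 48.1% in WT cord at day 3, and 33.3% in both at day 7. The day 1 and day 3 shares thus lay above those of all genes and the day 7 shares near them, while the risen shares lay below or near those of all genes. The median member differed from sham by -0.39, -0.39 and -0.11 in KO cord and by -0.33, -0.28 and -0.03 in WT cord at days 1, 3 and 7 on the log2 scale. For all genes tested that median lay between -0.06 and -0.05 in all 6 comparisons. In whole tissue, fewer cells of a type and less RNA per cell cannot be told apart.

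**Figure D1:**
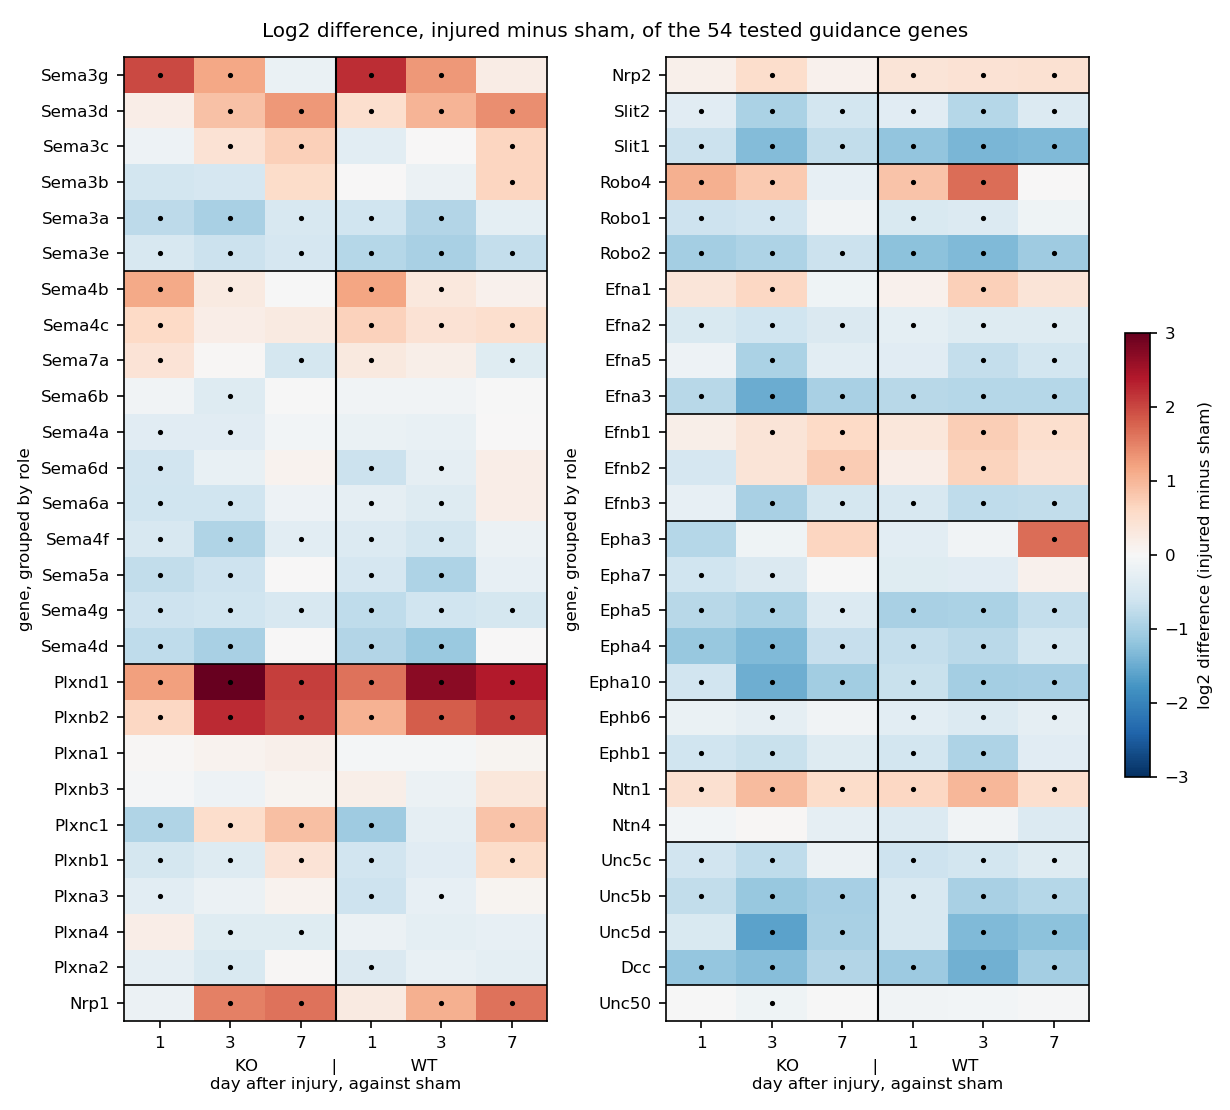
Log2 difference of each of the 54 tested members, injured minus sham, with genes down the page by role and the 3 days in KO and then WT cord across it. Red cells are higher and blue cells lower after injury, and blue covers most of the map at days 1 and 3 and fewer cells at day 7.

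Across the 6 injury comparisons 3 members rose in all of them (Ntn1, Plxnb2 and Plxnd1) and 12 fell in all of them (Dcc, Efna2, Efna3, Epha4, Epha5, Epha10, Robo2, Sema3e, Sema4g, Slit1, Slit2 and Unc5b). These are 5.56% and 22.2% of the tested members, against 11.2% and 13.3% of all genes tested. In all, 16 members (29.6%) rose in at least 1 comparison and fell in none, as did 37.3% of all genes, and 32 (59.3%) fell in at least 1 and rose in none, as did 46% of all genes. The comparisons within a genotype share their sham arrays. Plxnb1, Plxnc1 and Sema7a rose in some and fell in others, and Ntn4, Plxna1 and Plxnb3 passed in none. Of the 213 injury calls, 45 were lost in at least 1 of the 34 fits that left out a single array. When the library labelled KO sham replicate 2 was left out, 7, 12 and 9 members rose and 26, 31 and 13 fell in KO cord at days 1, 3 and 7. Of the 11993 genes tested, 5431, 7951 and 5851 were called in either direction in that fit. When WT day 3 replicate 2 was left out, 11, 11 and 15 members rose and 30, 24 and 21 fell in WT cord at the same days. There 7583, 7755 and 7568 of the 11993 genes were called in either direction.

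Promoters are shown for a pair of plexin genes that rose and for a ligand and receptor of the ephrin system that fell in all 6 comparisons. Each run is the 250 bases before the gene's start in RefSeq on build GRCm38.p6, written 5′ to 3′ on the gene's strand, and capitals mark GC boxes (GGGCGG, either strand) and STAT motifs (TTCNNNGAA). The Plxnd1 run is chr6:115995006-115995255 on the minus strand, that of Plxnb2 is chr15:89180789-89181038 on the minus strand, that of Efna3 is chr3:89322940-89323189 on the minus strand and that of Epha10 is chr4:124881535-124881784 on the plus strand. For Plxnb2 and Efna3 the gene start used is the first of 2 listed starts.
Plxnd1: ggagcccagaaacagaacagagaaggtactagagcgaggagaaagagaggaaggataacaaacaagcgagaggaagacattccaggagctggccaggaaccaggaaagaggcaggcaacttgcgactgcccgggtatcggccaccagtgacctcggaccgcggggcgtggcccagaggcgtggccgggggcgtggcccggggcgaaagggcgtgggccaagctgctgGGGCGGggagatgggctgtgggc
Plxnb2: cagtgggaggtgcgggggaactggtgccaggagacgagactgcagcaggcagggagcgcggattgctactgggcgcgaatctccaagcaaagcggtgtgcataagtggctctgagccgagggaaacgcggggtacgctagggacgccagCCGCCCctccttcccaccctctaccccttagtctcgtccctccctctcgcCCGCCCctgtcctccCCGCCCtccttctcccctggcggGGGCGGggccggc
Efna3: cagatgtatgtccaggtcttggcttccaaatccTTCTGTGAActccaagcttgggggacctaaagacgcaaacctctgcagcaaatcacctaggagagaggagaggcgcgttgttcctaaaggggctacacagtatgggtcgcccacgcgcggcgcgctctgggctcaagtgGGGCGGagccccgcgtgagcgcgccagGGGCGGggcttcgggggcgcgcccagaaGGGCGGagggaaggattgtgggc
Epha10: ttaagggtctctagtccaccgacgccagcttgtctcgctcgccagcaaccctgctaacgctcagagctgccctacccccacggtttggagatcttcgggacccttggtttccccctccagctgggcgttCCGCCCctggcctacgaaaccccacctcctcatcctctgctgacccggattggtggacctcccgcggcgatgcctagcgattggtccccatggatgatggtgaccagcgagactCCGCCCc
These promoters held 1 GC box in Plxnd1, 4 in Plxnb2, 3 in Efna3 and 2 in Epha10, and Efna3 held 1 STAT match. A GC box stood in 73.3% of the 45 tested members matched to a promoter and in 32.7% of all 32851 promoters, with a median GC content of 64.8% and 52.4%. It stood in both matched promoters of members that rose in all comparisons and in 9 of 10 of those that fell in all. AP-1 motifs (TGANTCA) stood in 4.44% of members' promoters and 6.75% of all, and STAT motifs in 4.44% and 7.02%. The member shares count 1 promoter per gene, while the 32851 include further starts of a gene and genes not tested here. These sets are unlike, so the gap in GC boxes is not read as a trait of guidance genes. A match describes the letters of this window and is not a bound site.

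Among the class 3 semaphorins, the secreted repellents that act through neuropilins, 4 of 6 tested members rose in at least 1 comparison (Sema3b, Sema3c, Sema3d and Sema3g) and 2 fell (Sema3a and Sema3e). Of all genes, 37.3% rose in at least 1 and fell in none, and 46% fell in at least 1 and rose in none. Sema3d is a secreted ligand also known from vessel and heart development. In KO cord Sema3d read 7.60, 7.03, 7.86 and 7.36 on sham arrays, 7.88, 7.82, 7.55 and 7.42 on day 1 arrays, 8.11, 8.21, 8.36, 8.51 and 8.53 on day 3 arrays and 8.73, 8.91, 8.70 and 8.77 on day 7 arrays. In WT cord Sema3d read 7.01, 7.27, 7.66 and 7.20 on sham arrays, 7.32, 8.01, 7.79, 8.29 and 7.58 on day 1 arrays, 8.35, 8.21, 8.59 and 8.09 on day 3 arrays and 8.84, 8.72, 8.60 and 8.57 on day 7 arrays. Every injured array of days 3 and 7 stood above all sham arrays of its genotype, while the day 1 arrays overlapped sham. The log2 difference from sham, given with its standard error from the fit, was 0.20 ± 0.17, 0.88 ± 0.16 and 1.31 ± 0.17 in KO cord and 0.51 ± 0.16, 1.02 ± 0.17 and 1.40 ± 0.17 in WT cord at days 1, 3 and 7. Adjusted p was at most 0.00907 wherever it passed and 0.333 in KO cord at day 1. At day 7 this made 2.48-fold in KO and 2.63-fold in WT cord.

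Sema3g, a ligand of neuropilin 2 made by endothelial cells, had an early and brief rise, and it is given in full because its values drew attention after they were seen. In KO cord Sema3g read 4.41, 4.05, 4.03 and 5.07 on sham arrays, 6.64, 6.24, 5.98 and 6.66 on day 1 arrays, 4.99, 5.37, 5.97, 6.54 and 4.94 on day 3 arrays and 4.13, 4.27, 4.51 and 3.90 on day 7 arrays. In WT cord Sema3g read 3.81, 3.67, 4.25 and 4.04 on sham arrays, 6.18, 5.93, 6.29, 6.31 and 6.04 on day 1 arrays, 4.75, 6.19, 5.03 and 5.0 on day 3 arrays and 4.07, 3.56, 4.01 and 5.01 on day 7 arrays. All day 1 arrays lay above all sham arrays in both genotypes, and by day 7 the groups overlapped again. The log2 difference was 1.99 ± 0.32, 1.17 ± 0.30 and -0.19 ± 0.32 in KO cord and 2.21 ± 0.30, 1.30 ± 0.32 and 0.22 ± 0.32 in WT cord at days 1, 3 and 7. With values under 4 set to 4, since they are not well above background, the day 1 level was 3.96-fold that of sham in KO cord and at least 4.23-fold in WT cord. The day 7 values did not pass (adjusted p = 0.641 in KO and 0.572 in WT cord). The highest day 3 readings were those of KO replicates 3 and 4 and WT replicate 2, the arrays with the highest endothelial marker means of their groups (8.19, 8.52 and 8.53). Without these 3 arrays and KO sham replicate 2, a setting chosen after seeing the data, the KO day 3 difference was 0.59 (adjusted p = 0.0606) and the WT one 0.99 (adjusted p = 0.00141). The endothelial list had 7 of 8 markers above the filter (all but Tie1), and its array means spanned 6.10 to 6.41 in KO sham, 6.73 to 7.24 at day 1, 6.69 to 8.52 at day 3 and 5.79 to 6.25 at day 7. In WT cord they spanned 5.57 to 5.83, 6.98 to 7.4, 7.44 to 8.53 and 5.37 to 7.21 in the same order. The part of endothelial RNA in the Sema3g result was not tested.

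Sema3c rose by 0.72 ± 0.14 in KO and 0.64 ± 0.14 in WT cord at day 7, and Sema3b passed only in WT cord at day 7 (0.64 ± 0.28), a call that 18 of 34 fits without 1 array lost. Sema3e, which binds plexin D1 without a neuropilin, fell in all 6 comparisons, with -0.47 ± 0.19, -0.65 ± 0.18 and -0.50 ± 0.19 in KO and -0.86 ± 0.18, -0.98 ± 0.19 and -0.72 ± 0.19 in WT cord. Its KO calls were the less firm, since 5 single arrays at day 1 and 3 at day 7 ended them when left out, with adjusted p up to 0.0956. Sema3a, the classic repellent of the wound scar, gave values that depended on the probe set. Its brightest probe set gave -0.80 ± 0.19, -0.98 ± 0.18 and -0.48 ± 0.19 in KO and -0.61 ± 0.18, -0.88 ± 0.19 and -0.29 ± 0.19 in WT cord, passing at all but WT day 7. The WT day 3 value was -0.55 without WT day 3 replicate 2, and the KO day 7 call was lost without any one of 7 single arrays (adjusted p up to 0.0796). The other Sema3a probe sets were dim, with means of 4.12 and 3.71 over the arrays, and no difference is read from the dimmest. The set at 4.12 gave -0.03, 0.42 and 0.42 in KO and 0.23, 0.53 and 0.45 in WT cord, none of them passing. The fall of Sema3a is thus given by a single probe set.

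Of the 11 tested membrane-bound and other semaphorins, 8 fell in at least 1 comparison and rose in none (Sema4a, Sema4d, Sema4f, Sema4g, Sema5a, Sema6a, Sema6b and Sema6d), a pattern that 46% of all genes had, and 2 rose (Sema4b and Sema4c). Sema4d is counted there by its brighter probe set alone. Sema4b, a transmembrane semaphorin, had its highest values on the first day. In KO cord Sema4b read 6.44, 6.58, 6.23 and 6.58 on sham arrays, 7.49, 7.62, 7.59 and 7.64 on day 1 arrays, 6.51, 6.94, 6.85, 6.71 and 6.64 on day 3 arrays and 6.24, 6.59, 6.59 and 6.34 on day 7 arrays. In WT cord Sema4b read 6.33, 6.60, 6.48 and 6.39 on sham arrays, 7.66, 7.48, 7.78, 7.67 and 7.54 on day 1 arrays, 6.68, 7.01, 6.60 and 6.76 on day 3 arrays and 6.59, 6.49, 6.50 and 6.73 on day 7 arrays. Day 1 arrays formed a group of their own between 7.48 and 7.78, and the later arrays overlapped sham. The log2 difference was 1.13 ± 0.10, 0.28 ± 0.10 and -0.02 ± 0.10 in KO and 1.17 ± 0.10, 0.31 ± 0.10 and 0.13 ± 0.10 in WT cord, with adjusted p of 4.51e-10 and 5.07e-11 at day 1. That is 2.19-fold in KO and 2.26-fold in WT cord. The small day 3 calls each rested on 1 array, since the KO one was lost without KO sham replicate 3 (0.20, adjusted p = 0.0814) and the WT one without WT day 3 replicate 2 (0.23, adjusted p = 0.0534). Sema4c, a ligand of plexin B2, rose by 0.59 ± 0.12 in KO and 0.69 ± 0.11 in WT cord at day 1 and by 0.51 ± 0.12 in WT cord at day 7. In KO cord at day 7 Sema4c gave 0.26 ± 0.12 (adjusted p = 0.0585). Sema7a, a lipid-anchored ligand of plexin C1, moved both ways, with 0.41 ± 0.13, 0.03 ± 0.12 and -0.53 ± 0.13 in KO and 0.30 ± 0.12, 0.17 ± 0.13 and -0.37 ± 0.13 in WT cord, and 5 single arrays ended its WT day 1 call when left out. Once caudal Hox level entered the fit, its WT day 7 value was -0.19 (adjusted p = 0.226). When all its probe sets were averaged, neither WT day 7 (adjusted p = 0.0567) nor KO day 1 (adjusted p = 0.0847) passed.

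**Figure D2:**
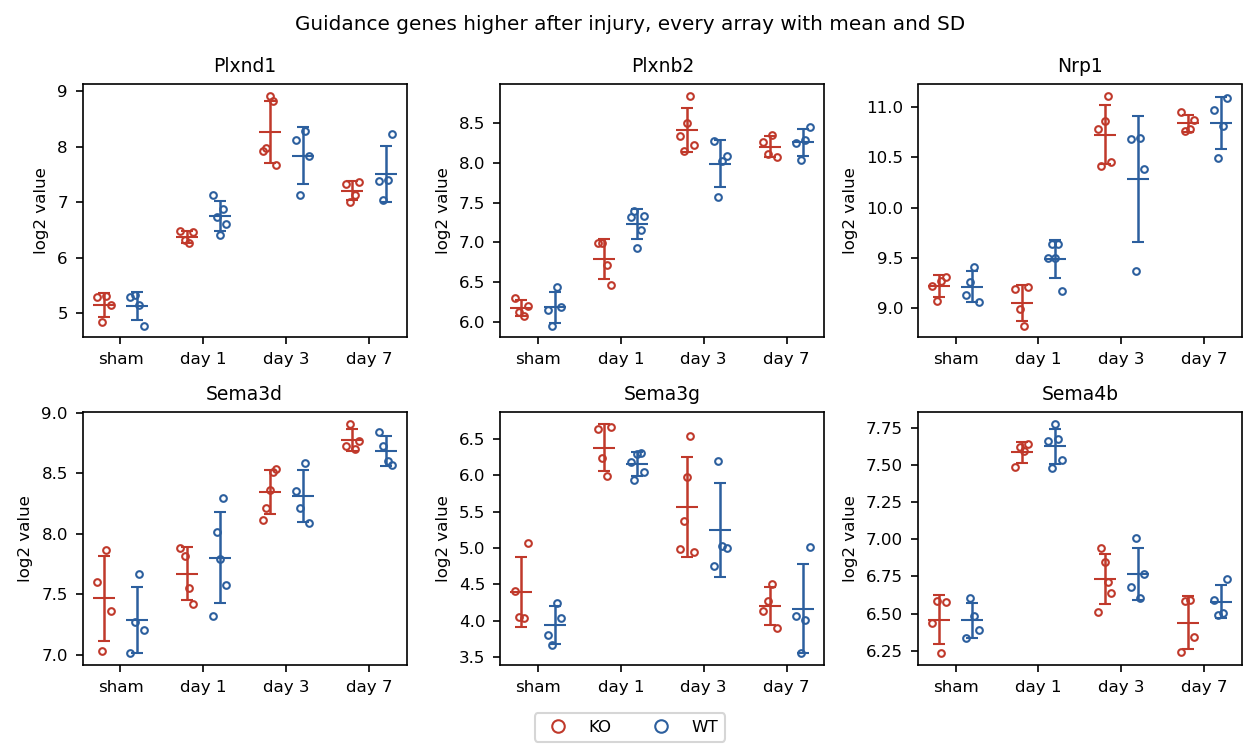
Log2 value on every array (open circles, with group mean and SD) for Plxnd1, Plxnb2, Nrp1, Sema3d, Sema3g and Sema4b, by day, with KO left of WT. Sema3g and Sema4b peak at day 1, while the other genes are highest at day 3 or day 7, and the genotypes lie side by side.

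Sema4d, a transmembrane ligand of plexin B1 made by oligodendrocytes and immune cells, read differently by its probe sets. It too was chosen for full display after its values were seen. In KO cord Sema4d read 8.27, 8.38, 8.65 and 8.39 on sham arrays, 7.65, 7.58, 7.58 and 7.78 on day 1 arrays, 7.13, 7.61, 7.17, 7.41 and 7.86 on day 3 arrays and 8.36, 8.37, 8.56 and 8.4 on day 7 arrays. In WT cord Sema4d read 8.53, 8.54, 8.78 and 8.62 on sham arrays, 8.09, 7.75, 7.58, 7.88 and 7.43 on day 1 arrays, 7.76, 6.62, 8.04 and 7.59 on day 3 arrays and 8.61, 8.85, 8.71 and 8.32 on day 7 arrays. All day 1 and day 3 arrays lay below sham, and day 7 arrays were back among the sham values. The difference was -0.77 ± 0.19, -0.98 ± 0.18 and 0.00 ± 0.19 in KO and -0.87 ± 0.18, -1.12 ± 0.19 and 0.00 ± 0.19 in WT cord at days 1, 3 and 7. The dimmer probe set of Sema4d averaged 5.74, 5.78, 6.42 and 7.05 in KO cord at sham and days 1, 3 and 7, and 5.61, 5.75, 6.11 and 7.08 in WT cord. Its difference from sham was 0.04, 0.68 and 1.31 in KO and 0.14, 0.50 and 1.47 in WT cord, called at days 3 and 7. So the probe sets moved in opposite directions at day 3, and the direction for the gene cannot be given. Over all members, the chosen probe set was called in 166 pairings with another probe set above the filter, and the other one was called the same way in 119, the opposite way in 2 (both Sema4d at day 3) and not called in 45.

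**Figure D3:**
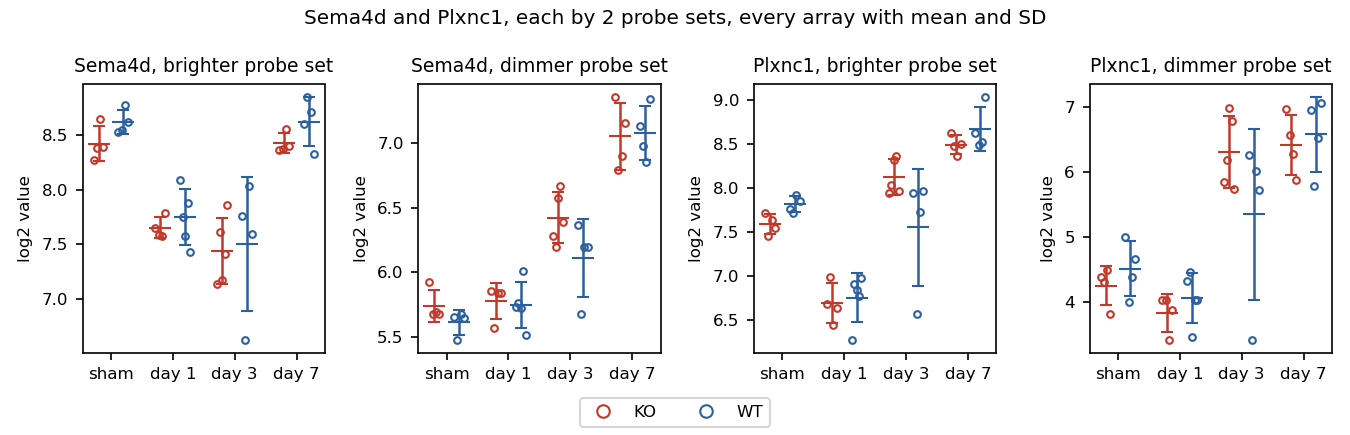
Log2 values on every array with group mean and SD for the brighter and the dimmer probe set of Sema4d and of Plxnc1, by day, with KO left of WT. The Sema4d probe sets go apart at day 3, and both Plxnc1 probe sets stand above sham at day 7.

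Sema5a, which carries thrombospondin repeats, fell, with -0.73 ± 0.16 in KO and -0.51 ± 0.15 in WT cord at day 1 and gave 0.00 ± 0.16 and -0.25 ± 0.16 at day 7, where neither passed. Sema4g fell in all 6 comparisons by 0.49 to 0.75, with its day 7 calls lost without 1 WT array or any one of 3 KO arrays. Sema4f fell, with -0.90 ± 0.12 in KO and -0.55 ± 0.13 in WT cord at day 3. Sema6d fell, with -0.57 ± 0.11 in KO and -0.65 ± 0.10 in WT cord at day 1. Its WT day 3 call (-0.26 ± 0.11) dropped to -0.12 (adjusted p = 0.260) without WT day 3 replicate 2. Sema6a fell, with -0.59 ± 0.11 in KO and -0.27 ± 0.10 in WT cord at day 1, the WT call being lost without any one of 4 arrays. Sema4a (-0.33 and -0.34 at days 1 and 3) and Sema6b (-0.40 at day 3) passed in KO cord and not in WT cord, but the genotype difference did not pass for either. The Sema6b call was lost without KO day 3 replicate 4 (-0.19, adjusted p = 0.0585) or KO sham replicate 1, and without the 4 libraries that stand apart the value was -0.09 (adjusted p = 0.393).

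Of the plexins, the signalling receptors of semaphorins, 2 of 9 rose throughout (Plxnd1 and Plxnb2), 3 fell in at least 1 comparison and rose in none (Plxna2, Plxna3 and Plxna4), 2 moved both ways (Plxnb1 and Plxnc1) and 2 passed in none (Plxna1 and Plxnb3). Of all genes, 11.2% rose throughout and 46% fell in at least 1 comparison and rose in none. Plxnd1, the receptor of Sema3e, best known from endothelial cells, had the largest change of any member. In KO cord Plxnd1 read 5.29, 4.83, 5.30 and 5.15 on sham arrays, 6.48, 6.31, 6.26 and 6.45 on day 1 arrays, 7.92, 7.99, 8.92, 8.82 and 7.67 on day 3 arrays and 7.33, 7.01, 7.12 and 7.37 on day 7 arrays. In WT cord Plxnd1 read 5.29, 5.32, 5.14 and 4.77 on sham arrays, 7.13, 6.73, 6.41, 6.88 and 6.60 on day 1 arrays, 8.12, 7.13, 8.28 and 7.83 on day 3 arrays and 7.38, 7.04, 7.4 and 8.23 on day 7 arrays. No injured array overlapped a sham array of its genotype. The log2 difference was 1.23 ± 0.25, 3.12 ± 0.24 and 2.07 ± 0.25 in KO and 1.62 ± 0.24, 2.71 ± 0.25 and 2.38 ± 0.25 in WT cord at days 1, 3 and 7, with adjusted p at most 0.000227. At day 3 the level was 8.7-fold that of sham in KO and 6.54-fold in WT cord. KO day 3 replicates 3 and 4 gave the highest readings (8.92 and 8.82) and WT day 3 replicate 2 the lowest of its group (7.13). Without the 4 libraries that stand apart, the day 3 difference was 2.62 in KO and 2.94 in WT cord. The part of endothelial RNA, whose marker values are given with Sema3g, was not tested.

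Plxnb2, a receptor of class 4 semaphorins found on many cell types, rose to a plateau. In KO cord Plxnb2 read 6.30, 6.12, 6.08 and 6.20 on sham arrays, 6.99, 6.99, 6.72 and 6.46 on day 1 arrays, 8.34, 8.16, 8.50, 8.84 and 8.23 on day 3 arrays and 8.27, 8.11, 8.35 and 8.07 on day 7 arrays. In WT cord Plxnb2 read 6.14, 5.95, 6.44 and 6.19 on sham arrays, 7.32, 7.39, 6.93, 7.16 and 7.34 on day 1 arrays, 8.28, 7.58, 8.03 and 8.09 on day 3 arrays and 8.25, 8.03, 8.29 and 8.46 on day 7 arrays. Again no injured array overlapped sham, and days 3 and 7 stood above day 1. The difference was 0.61 ± 0.15, 2.24 ± 0.14 and 2.03 ± 0.15 in KO and 1.05 ± 0.14, 1.81 ± 0.15 and 2.08 ± 0.15 in WT cord, with adjusted p at most 0.00122. At day 7 this was 4.08-fold in KO and 4.22-fold in WT cord.

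Plxnc1, the receptor of Sema7a, first fell and then rose. In KO cord Plxnc1 read 7.72, 7.45, 7.63 and 7.54 on sham arrays, 6.68, 6.99, 6.43 and 6.64 on day 1 arrays, 7.93, 8.03, 8.32, 8.36 and 7.96 on day 3 arrays and 8.62, 8.47, 8.36 and 8.50 on day 7 arrays. In WT cord Plxnc1 read 7.76, 7.71, 7.92 and 7.85 on sham arrays, 6.26, 6.90, 6.84, 6.77 and 6.97 on day 1 arrays, 7.94, 6.57, 7.73 and 7.97 on day 3 arrays and 8.63, 8.48, 8.52 and 9.03 on day 7 arrays. Day 1 arrays lay below every sham array and day 7 arrays above every one, in both genotypes. The difference was -0.90 ± 0.20, 0.54 ± 0.19 and 0.90 ± 0.20 in KO and -1.06 ± 0.19, -0.26 ± 0.20 and 0.85 ± 0.20 in WT cord. All passed but WT day 3, where adjusted p was 0.255 and replicate 2 read 6.57 against 7.73 to 7.97 on the other arrays. A dimmer Plxnc1 probe set gave -0.41, 2.06 and 2.17 in KO and -0.45, 0.84 and 2.07 in WT cord, called at KO day 3 and at day 7 in both. The microglia and macrophage list, with 9 of 9 markers tested, had array means of 6.28 to 6.61 in KO sham, 6.91 to 7.41 at day 1, 9.58 to 10.09 at day 3 and 10.08 to 10.23 at day 7. In WT cord they were 6.61 to 6.87, 7.30 to 7.81, 8.35 to 9.65 and 10.13 to 10.43 in the same order. Its part in the rise of Plxnc1, Plxnb2 and Nrp1 was not tested. Once adjusted for caudal Hox level, the KO day 3 value of Plxnc1 was 0.29 (adjusted p = 0.306).

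Plxna3, a co-receptor of class 3 semaphorins, was the dimmest of the plexins shown. In KO cord Plxna3 read 4.86, 4.99, 4.96 and 4.83 on sham arrays, 4.62, 4.54, 4.62 and 4.62 on day 1 arrays, 4.86, 4.87, 4.62, 4.44 and 4.86 on day 3 arrays and 4.86, 5.16, 5.22 and 4.86 on day 7 arrays. In WT cord Plxna3 read 5.05, 5.17, 5.0 and 5.06 on sham arrays, 4.30, 4.55, 4.50, 4.44 and 4.42 on day 1 arrays, 5.06, 4.62, 4.70 and 4.86 on day 3 arrays and 5.01, 5.22, 5.21 and 5.15 on day 7 arrays. Day 1 arrays lay below all sham arrays in both genotypes, and later arrays overlapped sham. The difference was -0.31 ± 0.10, -0.18 ± 0.09 and 0.11 ± 0.10 in KO and -0.63 ± 0.09, -0.26 ± 0.10 and 0.08 ± 0.10 in WT cord, passing at day 1 in both and at WT day 3, where leaving out any one of 3 arrays ended the call (adjusted p up to 0.0899). The value 4.86 recurred on 6 of 34 arrays, within 0.001, so small differences of this gene have coarse steps. Plxnb1, the receptor of Sema4d, gave -0.53 ± 0.16, -0.38 ± 0.16 and 0.41 ± 0.16 in KO and -0.57 ± 0.16, -0.35 ± 0.16 and 0.54 ± 0.16 in WT cord, below sham at day 1 and above it at day 7 with passing values in both genotypes. The KO day 3 and day 7 calls of Plxnb1 were each lost without any one of 5 single arrays.

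Both neuropilins, the ligand-binding partners of A-type plexins and of vascular growth factor, rose in at least 1 comparison and fell in none, as did 37.3% of all genes. In KO cord Nrp1 read 9.22, 9.07, 9.27 and 9.31 on sham arrays, 9.19, 8.99, 8.83 and 9.21 on day 1 arrays, 10.78, 10.41, 10.86, 11.11 and 10.46 on day 3 arrays and 10.94, 10.76, 10.78 and 10.87 on day 7 arrays. In WT cord Nrp1 read 9.13, 9.26, 9.41 and 9.06 on sham arrays, 9.50, 9.63, 9.50, 9.64 and 9.17 on day 1 arrays, 10.68, 9.37, 10.69 and 10.38 on day 3 arrays and 10.97, 10.49, 10.81 and 11.08 on day 7 arrays. Nrp1 stood above all sham arrays on every day 7 array and every KO day 3 array, and day 1 overlapped sham. In WT cord at day 3, replicate 2 read 9.37, within the sham range. The difference was -0.17 ± 0.19, 1.5 ± 0.18 and 1.62 ± 0.19 in KO and 0.27 ± 0.18, 1.07 ± 0.19 and 1.62 ± 0.19 in WT cord, with day 1 not passing (adjusted p = 0.494 in KO and 0.203 in WT cord). At day 7 the level was 3.07-fold in KO and 3.08-fold in WT cord, and 4 probe sets of Nrp1 moved this way. Nrp2, the partner for Sema3f and Sema3g, gave 0.16 ± 0.15, 0.52 ± 0.14 and 0.12 ± 0.15 in KO and 0.40 ± 0.14, 0.44 ± 0.15 and 0.45 ± 0.15 in WT cord, passing at KO day 3 and at all WT days. Its KO day 3 value was 0.28 (adjusted p = 0.0281) without the 4 libraries that stand apart and 0.25 (adjusted p = 0.190) once caudal Hox level entered the fit. A second Nrp2 probe set gave larger rises, of 0.79, 1.68 and 0.91 in KO and 1.13, 1.66 and 1.25 in WT cord.

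Both tested Slits, the secreted ligands of Robo receptors, fell in all 6 comparisons, as did 13.3% of all genes. In KO cord Slit1 read 7.19, 7.21, 6.67 and 7.01 on sham arrays, 6.22, 6.62, 6.29 and 6.35 on day 1 arrays, 6.25, 6.42, 4.85, 5.09 and 6.02 on day 3 arrays and 6.50, 6.11, 6.28 and 6.26 on day 7 arrays. In WT cord Slit1 read 7.14, 7.30, 7.20 and 7.18 on sham arrays, 5.93, 6.13, 6.26, 5.56 and 6.24 on day 1 arrays, 6.0, 5.56, 5.60 and 6.19 on day 3 arrays and 5.62, 5.94, 5.60 and 6.36 on day 7 arrays. Every injured Slit1 array lay below every sham array of its genotype. The difference was -0.65 ± 0.25, -1.29 ± 0.23 and -0.74 ± 0.25 in KO and -1.18 ± 0.23, -1.37 ± 0.25 and -1.32 ± 0.25 in WT cord, so at day 7 Slit1 was 1.67-fold lower than sham in KO and 2.5-fold lower in WT cord. The KO day 1 call was lost without any one of 5 arrays (adjusted p up to 0.0757). KO day 3 replicates 3 and 4 read 4.85 and 5.09, and without the 4 libraries that stand apart the KO day 3 difference was -0.72 (adjusted p = 0.00203). In KO cord Slit2 read 10.08, 10.29, 10.04 and 10.22 on sham arrays, 9.69, 9.80, 9.95 and 9.87 on day 1 arrays, 9.19, 9.36, 9.12, 8.86 and 9.45 on day 3 arrays and 9.63, 9.54, 9.58 and 9.68 on day 7 arrays. In WT cord Slit2 read 10.27, 10.27, 10.15 and 10.11 on sham arrays, 9.87, 9.67, 10.12, 9.70 and 9.98 on day 1 arrays, 9.42, 8.86, 9.61 and 9.50 on day 3 arrays and 9.99, 9.57, 9.81 and 9.79 on day 7 arrays. Slit2, which lines the midline in development, had its lowest values at day 3. Its injured arrays lay below sham except for 1 WT day 1 array at 10.12. The difference was -0.33 ± 0.13, -0.96 ± 0.12 and -0.55 ± 0.13 in KO and -0.33 ± 0.12, -0.85 ± 0.13 and -0.41 ± 0.13 in WT cord, with the day 1 calls lost without any one of 4 arrays in either genotype (adjusted p up to 0.104).

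Of the Robo receptors, Robo1 and Robo2 fell and Robo4 rose. In KO cord Robo2 read 6.94, 6.66, 6.82 and 6.89 on sham arrays, 5.90, 5.93, 5.58 and 5.80 on day 1 arrays, 6.15, 6.27, 5.51, 5.47 and 6.06 on day 3 arrays and 5.94, 5.93, 6.35 and 6.56 on day 7 arrays. In WT cord Robo2 read 7.01, 7.23, 6.98 and 6.92 on sham arrays, 5.54, 6.23, 5.93, 5.39 and 5.93 on day 1 arrays, 5.93, 5.54, 5.82 and 5.54 on day 3 arrays and 5.93, 6.09, 5.91 and 5.93 on day 7 arrays. No injured Robo2 array reached the sham range. The difference was -1.02 ± 0.17, -0.94 ± 0.16 and -0.63 ± 0.17 in KO and -1.23 ± 0.16, -1.33 ± 0.17 and -1.07 ± 0.17 in WT cord, with adjusted p at most 0.00282. The value 5.93 recurred on 6 arrays, all of them injured, within 0.001. Robo1, another neuronal Slit receptor, gave -0.63 ± 0.16, -0.58 ± 0.15 and -0.11 ± 0.16 in KO and -0.46 ± 0.15, -0.41 ± 0.16 and -0.14 ± 0.16 in WT cord, passing at days 1 and 3. Without WT day 3 replicate 2 the WT day 3 value was -0.20 (adjusted p = 0.210). Once caudal Hox level entered the fit, the KO day 3 value was -0.32 (adjusted p = 0.121). A dimmer Robo1 probe set fell further, with -0.82, -2.25 and -1.28 in KO and -0.91, -1.76 and -1.2 in WT cord.

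Robo4 belongs to endothelial cells and is shown in full for values seen after the analysis. In KO cord Robo4 read 3.46, 3.89, 3.89 and 3.80 on sham arrays, 5.27, 4.97, 4.08 and 4.98 on day 1 arrays, 3.93, 4.52, 5.25, 5.32 and 3.70 on day 3 arrays and 3.37, 3.57, 3.59 and 3.57 on day 7 arrays. In WT cord Robo4 read 3.60, 3.46, 3.43 and 3.57 on sham arrays, 4.49, 4.34, 4.07, 4.90 and 4.01 on day 1 arrays, 4.67, 6.37, 5.03 and 4.70 on day 3 arrays and 3.62, 3.16, 3.43 and 3.93 on day 7 arrays. Sham and day 7 arrays all read under 4, and day 1 arrays all read above 4. Only day 1 and day 3 arrays thus brought Robo4 past the filter, the groups in which it was then called higher. The difference was 1.07 ± 0.32, 0.78 ± 0.31 and -0.24 ± 0.32 in KO and 0.85 ± 0.31, 1.68 ± 0.32 and 0.02 ± 0.32 in WT cord. With values under 4 set to 4, the day 1 level was at least 1.77-fold that of sham in KO cord (adjusted p = 0.0215) and the day 3 level at least 2.28-fold in WT cord (adjusted p = 0.000872). At that floor neither WT day 1 (0.36, adjusted p = 0.277) nor KO day 3 (0.62, adjusted p = 0.0514) passed. The highest day 3 values were again those of KO replicates 3 and 4 (5.25 and 5.32) and WT replicate 2 (6.37). Without the 4 libraries that stand apart the KO day 3 difference was 0.33 (adjusted p = 0.251) and the WT one 1.29 (adjusted p = 3.08e-05). The WT day 1 call was lost without WT day 1 replicate 4 (0.71, adjusted p = 0.0607), and the KO day 3 call without any one of 3 arrays.

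The A-type ephrins are lipid-anchored ligands, and 3 of 4 tested fell (Efna2, Efna3 and Efna5) while Efna1 rose at day 3. Of all genes, 46% fell in at least 1 comparison and rose in none. In KO cord Efna3 read 6.24, 6.35, 6.17 and 6.44 on sham arrays, 5.29, 5.48, 5.48 and 5.61 on day 1 arrays, 5.07, 5.31, 4.05, 4.27 and 5.38 on day 3 arrays and 5.55, 5.24, 5.29 and 5.26 on day 7 arrays. In WT cord Efna3 read 5.63, 6.21, 6.13 and 5.88 on sham arrays, 5.03, 5.05, 5.47, 4.73 and 5.38 on day 1 arrays, 5.03, 5.24, 5.03 and 5.11 on day 3 arrays and 5.11, 5.29, 5.03 and 5.03 on day 7 arrays. All injured Efna3 arrays lay below all sham arrays of their genotype. The difference was -0.83 ± 0.20, -1.48 ± 0.19 and -0.96 ± 0.20 in KO and -0.83 ± 0.19, -0.86 ± 0.20 and -0.85 ± 0.20 in WT cord, with adjusted p at most 0.00143. At day 3 Efna3 was 2.8-fold lower than sham in KO and 1.81-fold lower in WT cord. There KO replicates 3 and 4, which stand apart, read 4.05 and 4.27, against 5.07 to 5.38 on the other KO arrays of that day. The value 5.03 recurred on 5 arrays, all injured. Efna5, a repellent of retinal axons in development, fell, with -0.94 ± 0.20 in KO and -0.70 ± 0.21 in WT cord at day 3. Efna1, an ephrin of vessels, rose by 0.61 ± 0.26 in KO and 0.71 ± 0.28 in WT cord at day 3, but without the 4 libraries that stand apart neither passed (0.36 and 0.38, adjusted p = 0.122 and 0.0759). Efna2 fell in all 6 comparisons by 0.28 to 0.60, the WT day 1 call being lost without any one of 5 arrays.

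The B-type ephrins, which signal backward as well as forward, split: Efnb3 fell, and Efnb1 and Efnb2 rose. In KO cord Efnb3 read 9.90, 9.79, 9.84 and 9.85 on sham arrays, 9.62, 9.52, 9.74 and 9.52 on day 1 arrays, 8.65, 8.92, 8.55, 9.03 and 9.17 on day 3 arrays and 9.24, 9.36, 9.46 and 9.23 on day 7 arrays. In WT cord Efnb3 read 9.90, 9.80, 9.94 and 10.31 on sham arrays, 9.48, 9.51, 9.43, 9.68 and 9.49 on day 1 arrays, 9.14, 9.61, 9.11 and 9.04 on day 3 arrays and 9.20, 9.51, 9.14 and 9.19 on day 7 arrays. Efnb3 forms a midline barrier to corticospinal axons in development, and its injured arrays all read below sham. The difference was -0.25 ± 0.12, -0.98 ± 0.12 and -0.52 ± 0.12 in KO and -0.47 ± 0.12, -0.76 ± 0.12 and -0.73 ± 0.12 in WT cord, passing everywhere but KO day 1 (adjusted p = 0.0961). Efnb1 rose by 0.60 ± 0.18 in KO and 0.51 ± 0.18 in WT cord at day 7, and its KO day 3 value of 0.40 became 0.23 (adjusted p = 0.176) without KO day 3 replicate 3. Efnb2, an ephrin of arteries, rose by 0.67 ± 0.25 in WT cord at day 3, a call lost without any one of 3 arrays (adjusted p up to 0.114). In KO cord its day 7 rise was 0.77 ± 0.25, a call lost without KO sham replicate 2 (0.59, adjusted p = 0.0667). In that same fit Efnb2 was called lower than sham in KO cord at day 1 (-0.68, adjusted p = 0.0366).

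**Figure D4:**
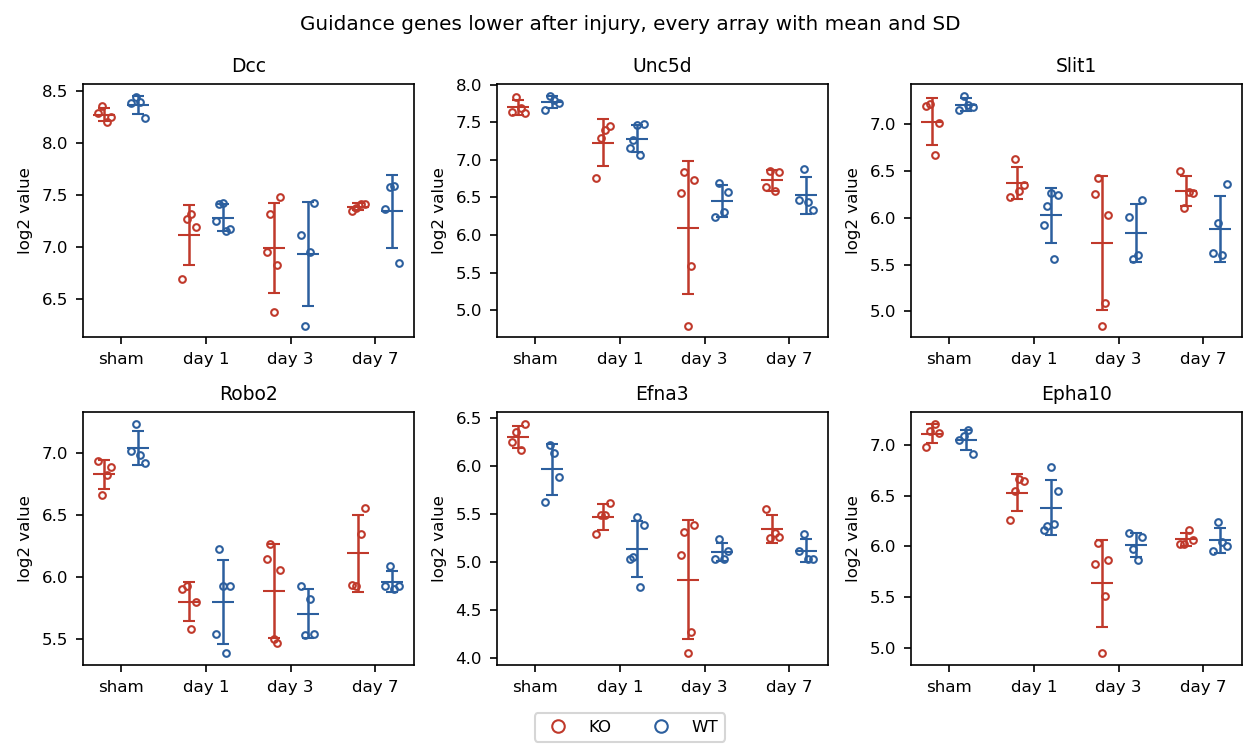
Log2 value on every array (open circles, with group mean and SD) for Dcc, Unc5d, Slit1, Robo2, Efna3 and Epha10, by day, with KO left of WT. Injured arrays lie below the sham arrays of their genotype in all 6 genes, and KO day 3 holds 2 arrays lower than the rest in Unc5d, Slit1 and Efna3.

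Among the A-type Eph receptors 4 of 5 tested fell in at least 1 comparison and rose in none (Epha4, Epha5, Epha7 and Epha10), as did 46% of all genes. Epha3 passed as higher in WT cord at day 7, but only injured arrays brought it past the filter. In KO cord Epha10 read 6.99, 7.13, 7.21 and 7.12 on sham arrays, 6.26, 6.54, 6.66 and 6.64 on day 1 arrays, 5.83, 6.03, 4.95, 5.52 and 5.87 on day 3 arrays and 6.03, 6.03, 6.16 and 6.07 on day 7 arrays. In WT cord Epha10 read 7.05, 7.09, 7.15 and 6.91 on sham arrays, 6.16, 6.20, 6.78, 6.22 and 6.55 on day 1 arrays, 6.14, 5.98, 5.87 and 6.09 on day 3 arrays and 5.96, 6.24, 6.04 and 6.0 on day 7 arrays. Epha10 encodes a receptor whose kinase domain is thought to be inactive, and none of its injured arrays reached sham. The difference was -0.58 ± 0.15, -1.47 ± 0.15 and -1.04 ± 0.15 in KO and -0.67 ± 0.15, -1.03 ± 0.15 and -0.99 ± 0.15 in WT cord, with adjusted p at most 0.00265. At day 3 it was 2.78-fold lower than sham in KO and 2.04-fold lower in WT cord. There KO replicates 3 and 4, which stand apart, read 4.95 and 5.52, against 5.83 to 6.03 on the other KO arrays of that day. In KO cord Epha4 read 8.82, 8.80, 8.99 and 8.87 on sham arrays, 7.39, 7.73, 8.05 and 7.73 on day 1 arrays, 7.74, 8.02, 7.13, 7.05 and 7.74 on day 3 arrays and 8.22, 8.02, 8.28 and 8.24 on day 7 arrays. In WT cord Epha4 read 8.54, 8.78, 8.62 and 8.13 on sham arrays, 7.80, 7.88, 8.02, 7.51 and 7.83 on day 1 arrays, 7.76, 7.21, 7.91 and 7.98 on day 3 arrays and 8.02, 8.24, 7.90 and 7.71 on day 7 arrays. Epha4, which keeps corticospinal and spinal circuit axons on their side of the cord, overlapped sham only in WT cord at day 7. The difference was -1.15 ± 0.18, -1.34 ± 0.18 and -0.68 ± 0.18 in KO and -0.71 ± 0.18, -0.80 ± 0.18 and -0.55 ± 0.18 in WT cord, with adjusted p at most 0.012, and 5 probe sets of the gene moved the same way.

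In KO cord Epha5 read 8.97, 8.85, 8.94 and 8.80 on sham arrays, 7.71, 8.26, 8.18 and 8.07 on day 1 arrays, 8.12, 8.27, 7.12, 7.86 and 8.30 on day 3 arrays and 8.47, 8.39, 8.60 and 8.45 on day 7 arrays. In WT cord Epha5 read 9.11, 8.96, 9.05 and 9.02 on sham arrays, 8.15, 8.16, 8.26, 7.71 and 7.99 on day 1 arrays, 8.01, 8.01, 8.02 and 8.30 on day 3 arrays and 8.39, 8.69, 8.22 and 8.03 on day 7 arrays. Epha5, a neuronal receptor of A-type ephrins, read lower on every injured array than on any sham array of its genotype. The difference was -0.83 ± 0.17, -0.96 ± 0.17 and -0.41 ± 0.17 in KO and -0.98 ± 0.17, -0.95 ± 0.17 and -0.71 ± 0.17 in WT cord. The KO day 7 call was lost in 15 of 34 fits without 1 array (adjusted p up to 0.0962). In KO cord Epha3 read 3.30, 2.46, 3.22 and 3.67 on sham arrays, 2.46, 2.17, 2.30 and 2.30 on day 1 arrays, 3.06, 2.46, 4.50, 2.58 and 2.58 on day 3 arrays and 4.28, 3.35, 4.0 and 3.59 on day 7 arrays. In WT cord Epha3 read 2.63, 2.57, 3.67 and 2.63 on sham arrays, 2.30, 2.83, 2.81, 2.46 and 2.46 on day 1 arrays, 3.01, 2.30, 3.21 and 2.56 on day 3 arrays and 4.71, 3.25, 4.48 and 5.81 on day 7 arrays. Epha3, shown because its values stood out once seen, read under 4 on most arrays, and the exceptions were 2 of 4 KO day 7 arrays, 3 of 4 WT day 7 arrays and KO day 3 replicate 3. Those 6 arrays alone brought the gene past the filter, so the filter and the WT day 7 call share arrays. The Epha3 difference was -0.86 ± 0.40, -0.13 ± 0.38 and 0.64 ± 0.40 in KO and -0.31 ± 0.38, -0.11 ± 0.40 and 1.68 ± 0.40 in WT cord. With values under 4 set to 4, WT day 7 was at least 1.68-fold above sham. Epha7 gave -0.60 ± 0.18 and -0.43 ± 0.17 in KO cord at days 1 and 3, both passing, and -0.37 ± 0.17 and -0.33 ± 0.18 in WT cord, where neither passed. The KO day 3 call of Epha7 was lost without any one of 3 arrays (adjusted p up to 0.0760), and its genotype difference did not pass.

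Both tested B-type Eph receptors fell in at least 1 comparison and rose in none, as did 46% of all genes. In KO cord Ephb6 read 6.20, 6.46, 6.57 and 6.36 on sham arrays, 6.20, 6.26, 6.13 and 6.20 on day 1 arrays, 6.11, 6.20, 6.0, 6.12 and 6.20 on day 3 arrays and 6.20, 6.20, 6.54 and 6.20 on day 7 arrays. In WT cord Ephb6 read 6.31, 6.42, 6.53 and 6.60 on sham arrays, 6.10, 6.11, 6.18, 6.20 and 6.20 on day 1 arrays, 6.14, 5.70, 6.20 and 6.20 on day 3 arrays and 6.20, 6.20, 6.20 and 6.20 on day 7 arrays. Ephb6, which lacks kinase activity, sat at 6.20 within 0.001 on 16 of the 34 arrays, 15 of them injured and 1 sham. Its differences were small, with -0.20 ± 0.09, -0.27 ± 0.09 and -0.12 ± 0.09 in KO and -0.31 ± 0.09, -0.41 ± 0.09 and -0.27 ± 0.09 in WT cord, and they passed at KO day 3 and all WT days. The WT day 7 call was lost without WT sham replicate 4 (-0.23, adjusted p = 0.0549). Ephb1, a receptor of B-type ephrins at the midline, fell, with -0.66 ± 0.20 in KO and -0.93 ± 0.21 in WT cord at day 3, and the WT value became -0.53 without WT day 3 replicate 2.

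Ntn1, the prototype attractant of commissural axons, rose in all 6 comparisons, while Ntn4 passed in none. In KO cord Ntn1 read 7.34, 7.03, 7.17 and 7.28 on sham arrays, 7.90, 7.80, 7.52 and 7.52 on day 1 arrays, 7.84, 8.06, 8.43, 8.54 and 7.95 on day 3 arrays and 7.78, 7.86, 7.57 and 7.77 on day 7 arrays. In WT cord Ntn1 read 6.83, 6.90, 7.74 and 7.08 on sham arrays, 8.09, 7.67, 7.69, 7.91 and 7.42 on day 1 arrays, 8.25, 8.03, 8.25 and 8.0 on day 3 arrays and 7.73, 7.36, 7.55 and 7.89 on day 7 arrays. Injured KO arrays all stood above the KO sham arrays, while in WT cord the sham array at 7.74 overlapped days 1 and 7. The difference was 0.48 ± 0.17, 0.96 ± 0.16 and 0.54 ± 0.17 in KO and 0.62 ± 0.16, 1.00 ± 0.17 and 0.49 ± 0.17 in WT cord. The day 3 values had adjusted p of 6.43e-06 in KO and 1.12e-05 in WT cord, a 1.94-fold and a 1.99-fold level. The KO day 1 call was lost without KO day 1 replicate 1 or 2 or without KO sham replicate 2 (0.41 to 0.44, adjusted p up to 0.0722), and the WT day 7 call without any one of 3 arrays (adjusted p up to 0.0663).

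All 4 tested members among the netrin receptors fell in at least 1 comparison and rose in none, a pattern that 46% of all genes had. In KO cord Dcc read 8.29, 8.36, 8.2 and 8.25 on sham arrays, 6.69, 7.27, 7.32 and 7.20 on day 1 arrays, 6.95, 7.32, 6.38, 6.83 and 7.48 on day 3 arrays and 7.35, 7.38, 7.41 and 7.41 on day 7 arrays. In WT cord Dcc read 8.39, 8.44, 8.39 and 8.24 on sham arrays, 7.25, 7.41, 7.43, 7.16 and 7.18 on day 1 arrays, 7.12, 6.25, 6.95 and 7.42 on day 3 arrays and 7.36, 7.58, 7.59 and 6.85 on day 7 arrays. Dcc, the receptor for attraction by netrin, was lower on every injured array than on any sham array of its genotype. The difference was -1.15 ± 0.20, -1.28 ± 0.19 and -0.88 ± 0.20 in KO and -1.08 ± 0.19, -1.43 ± 0.20 and -1.02 ± 0.20 in WT cord, with adjusted p at most 0.000537, which made 2.43-fold lower in KO and 2.7-fold lower in WT cord at day 3. In KO cord Unc5d read 7.64, 7.84, 7.68 and 7.63 on sham arrays, 6.76, 7.29, 7.4 and 7.45 on day 1 arrays, 6.55, 6.83, 4.79, 5.58 and 6.73 on day 3 arrays and 6.63, 6.85, 6.59 and 6.84 on day 7 arrays. In WT cord Unc5d read 7.67, 7.85, 7.80 and 7.76 on sham arrays, 7.16, 7.26, 7.46, 7.06 and 7.48 on day 1 arrays, 6.23, 6.69, 6.31 and 6.57 on day 3 arrays and 6.46, 6.88, 6.43 and 6.33 on day 7 arrays. Unc5d, a repulsive netrin receptor of neurons, also had no overlap, though day 1 did not pass (adjusted p = 0.142 in KO and 0.0991 in WT cord). The difference was -0.47 ± 0.27, -1.60 ± 0.25 and -0.97 ± 0.27 in KO and -0.49 ± 0.25, -1.32 ± 0.27 and -1.24 ± 0.27 in WT cord. KO day 3 replicates 3 and 4 read 4.79 and 5.58, and without the 4 libraries that stand apart the KO day 3 difference was -0.94 (adjusted p = 7.34e-06).

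In KO cord Unc5b read 7.15, 7.38, 7.53 and 7.24 on sham arrays, 6.57, 6.47, 6.83 and 6.51 on day 1 arrays, 5.96, 6.24, 6.04, 6.37 and 6.30 on day 3 arrays and 6.47, 6.26, 6.39 and 6.17 on day 7 arrays. In WT cord Unc5b read 7.29, 7.35, 7.39 and 7.19 on sham arrays, 7.09, 6.77, 7.06, 6.84 and 6.41 on day 1 arrays, 6.37, 6.39, 6.35 and 6.25 on day 3 arrays and 6.25, 6.60, 6.55 and 6.38 on day 7 arrays. Unc5b, a netrin receptor of vessels and neurons, had no overlap between injured and sham arrays. The difference was -0.73 ± 0.12, -1.14 ± 0.11 and -1.01 ± 0.12 in KO and -0.47 ± 0.11, -0.97 ± 0.12 and -0.86 ± 0.12 in WT cord, with adjusted p at most 0.000856. Unc5c, needed for repulsion of trochlear and cerebellar axons, fell, with -0.75 ± 0.11 in KO and -0.55 ± 0.12 in WT cord at day 3 and gave -0.17 ± 0.12 in KO and -0.38 ± 0.12 in WT cord at day 7, passing in WT. So in WT cord the ligand Ntn1 was higher and Dcc, Unc5b, Unc5c and Unc5d were lower on days 3 and 7. In KO cord the same held but for Unc5c at day 7, which did not pass. Unc5a was too dim to test, and netrin receptors outside the members are not given gene by gene.

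Neuron markers were also lower after injury. The array means of the neuron list, with 9 of 10 markers tested (all but Chat), spanned 12.83 to 12.94 in KO sham, 12.30 to 12.61 at day 1, 11.26 to 12.31 at day 3 and 12.26 to 12.34 at day 7. In WT cord they spanned 12.88 to 12.95, 12.12 to 12.58, 11.89 to 12.24 and 12.16 to 12.28 in the same order. Of the 9 markers, 3, 9 and 7 fell in KO and 5, 9 and 9 in WT cord at days 1, 3 and 7. Their part in the fall of the guidance genes was not tested. Unc50, matched by its symbol, served as a nearly flat reading. In KO cord Unc50 read 10.13, 10.16, 10.27 and 10.15 on sham arrays, 10.17, 10.14, 10.15 and 10.17 on day 1 arrays, 10.03, 10.003, 9.997, 10.10 and 10.11 on day 3 arrays and 10.23, 10.14, 10.22 and 10.10 on day 7 arrays. In WT cord Unc50 read 10.16, 10.14, 10.35 and 10.28 on sham arrays, 10.22, 10.15, 10.11, 10.09 and 10.10 on day 1 arrays, 10.07, 10.23, 10.12 and 10.16 on day 3 arrays and 10.22, 10.21, 10.19 and 10.18 on day 7 arrays. Its only injury call was KO day 3 (-0.13 ± 0.05, lost without KO sham replicate 3).

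The days were then set against each other over both genotypes. At day 3 against day 1, 12 members were higher and 14 lower, against 26.1% and 34.3% of all genes, which are shares of 22.2% and 25.9% of the members. The risen ones were Efna1, Efnb1, Efnb2, Nrp1, Ntn1, Plxna3, Plxnb2, Plxnc1, Plxnd1, Sema3c, Sema3d and Sema6d, and the fallen ones included Unc5d (-0.98 ± 0.18), Sema3g (-0.86 ± 0.21) and Sema4b (-0.86 ± 0.07). At day 7 against day 3, 27 were higher and 7 lower, which are 50% and 13% of the members against 24.8% and 21.3% of all genes. The 7 lower ones were Efna1, Ntn1, Plxnd1, Robo4, Sema3g, Sema4b and Sema7a.

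Among the 27 higher at day 7 than at day 3 were Sema4d by its brighter probe set (1.05 ± 0.13), Sema3b (0.94 ± 0.19) and Plxnb1 (0.84 ± 0.11). Of the 24 members lower than sham at day 3 in both genotypes, 14 (58.3%) were higher at day 7 than at day 3, against 48.4% of the 4026 genes chosen in the same way. Both steps use the same day 3 arrays, and without the 4 libraries that stand apart the shares were 8 of 23 members (34.8%) and 28% of such genes. Of the 20 that were lower at both day 1 and day 3 in both genotypes, 5 passed in neither genotype at day 7 (Ephb1, Robo1, Sema4d, Sema5a and Sema6a). The share of all genes with this pattern was not counted, so no trait of guidance genes is read from it. Sema4d is listed by its brighter probe set alone, as its dimmer one was called higher than sham at days 3 and 7. Without the 4 libraries that stand apart, all but the sham one from day 3, 21 members were higher and 5 lower at day 7 than at day 3. The shares of all genes were not counted in this setting, so these counts have no background beside them. In it Dcc (0.16), Epha4 (0.22), Robo1 (0.15) and Ephb1 (0.19) were among the 12 of 60 calls between days that did not pass.

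KO and WT cord were compared at each time, which asks whether the truncated receptor bears on these genes. No member passed at sham or at days 1, 3 or 7, where limma called 0.0667%, 0.859%, 0.0334% and 0.0334% of all genes, and 0, 5, 8 and 2 members had an unadjusted p below 0.05. Those are 0%, 9.26%, 14.8% and 3.7% of the members, against 4.1%, 9.7%, 11.5% and 4.8% of all genes. No member passed in the difference of the injury response between genotypes at days 1, 3 and 7 either, where 0.142%, 0% and 0.00834% of all genes did, and 4, 6 and 1 members had an unadjusted p below 0.05, which are 7.41%, 11.1% and 1.85% of the members against 6.34%, 7% and 3.29% of all genes. Without the library labelled KO sham replicate 2, too, no member passed in any of these 7 comparisons. These comparisons share groups, and those against sham share the sham arrays of each genotype. The median size of the KO minus WT difference was 0.11, 0.12, 0.15 and 0.13 for members at sham and days 1, 3 and 7, against 0.07, 0.10, 0.11 and 0.08 for all genes. No member reached a difference of 1, and among members above 4 on every array compared the largest were Sema3b at sham (0.42), Efnb2 at day 1 (-0.50), Plxnc1 at day 3 (0.57) and Efnb2 at day 7 (0.54). A value that did not pass does not show that the genotypes are alike.

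**Figure D5:**
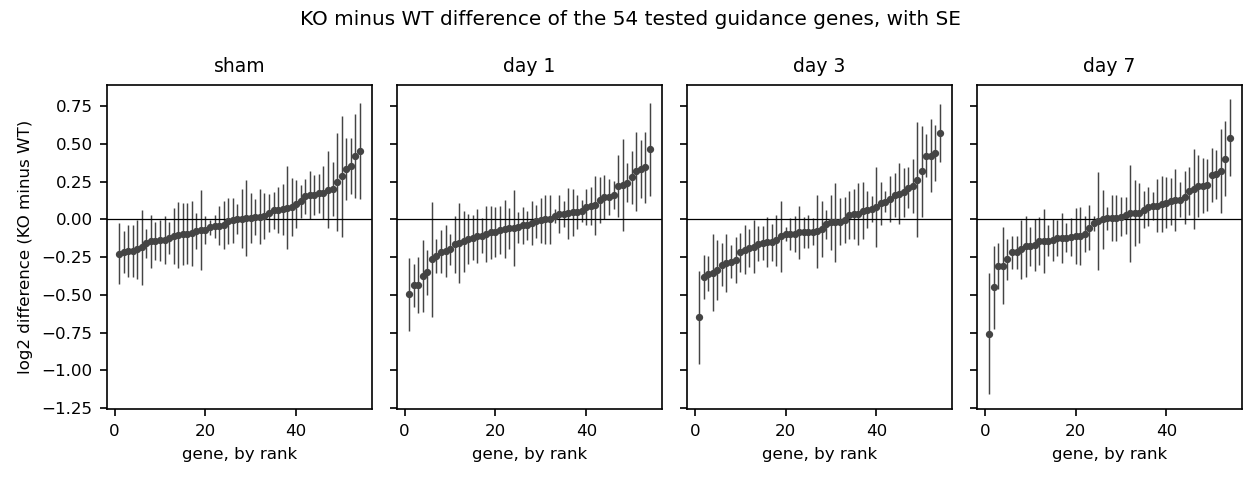
KO minus WT log2 difference of the 54 tested members with its standard error, sorted by size within sham and days 1, 3 and 7. The points run from -0.76 to 0.57 and cross 0 near the middle at every time, and none passed after adjustment.

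The smallest p-values belonged to Plxnb2, Efnb3 and Plxnc1. Plxnb2 was 0.44 lower in KO than in WT cord at day 1 (-0.44 ± 0.14, adjusted p = 0.196) and 0.42 higher at day 3 (0.42 ± 0.14, adjusted p = 0.349), with overlapping arrays at both times. Efnb3 differed by -0.36 ± 0.12 at day 3 (adjusted p = 0.341) and Plxnc1 by 0.57 ± 0.19 (adjusted p = 0.349), where WT replicate 2 was the lowest Plxnc1 array. In the difference of the injury response, Plxnc1 at day 3 gave 0.80 ± 0.28 (adjusted p = 0.632), Plxna3 at day 1 0.32 ± 0.13 (adjusted p = 0.64) and Efna3 at day 3 -0.62 ± 0.28 (adjusted p = 0.693).

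These zero counts depended on what was adjusted for. With the caudal Hox mean of each array as a covariate, 9 members passed in KO against WT sham cord (9.36% of all genes), 10 in the genotype difference at day 1 (12.2%) and 2 at day 7 (2.28%). The sham calls were Efnb1, Ntn1, Sema3d and Sema4c above WT and Epha5, Epha10, Plxna4, Slit1 and Unc5d below, with Unc5d at -1.25 ± 0.29 (adjusted p = 0.0168) where the fit without the covariate gave -0.07. The Hox means of the sham arrays did not overlap between genotypes, spanning 8.59 to 8.91 in KO and 6.46 to 7.26 in WT cord, so level along the cord and genotype cannot be told apart at sham. Without the 4 libraries that stand apart, Nrp1 (-0.44 ± 0.12, adjusted p = 0.0354) and Plxnb2 (-0.44 ± 0.11, adjusted p = 0.0343) passed as lower in KO than in WT cord at day 1, where 3.14% of all genes did.

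Other genes of the pathway were read from a list of 62 co-receptors, further ligands and intracellular effectors, of which 56 were tested. In KO cord 16, 17 and 18 rose and 18, 26 and 18 fell at days 1, 3 and 7, and in WT cord 15, 16 and 18 rose and 23, 25 and 20 fell. The risen shares ran from 26.8% to 32.1% and the fallen ones from 32.1% to 46.4%, with the widest gaps to all genes at WT day 1 (41.1% fell, against 32.5%) and KO day 7 (32.1% rose, against 23.5%). At day 1 the firmest were Dock1, an activator of Rac (1.06 ± 0.08 in KO and 1.18 ± 0.08 in WT cord), Nrcam, an adhesion partner of neuropilin (1.31 ± 0.13 and 1.52 ± 0.12), and Met, a growth factor receptor that couples to plexins (1.90 ± 0.22 and 2.61 ± 0.21). At day 3 the small GTPases Rhoa (0.87 ± 0.06 in KO and 0.86 ± 0.07 in WT cord) and Cdc42 (0.75 ± 0.06 and 0.80 ± 0.06) stood above sham. No gene of this list passed between genotypes, at any time or in the response.

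Myelin-associated inhibitors of axon growth and their receptors were a list of 9 with 7 tested. In KO cord 0, 0 and 1 rose and 4, 3 and 2 fell at days 1, 3 and 7, and in WT cord 1, 1 and 1 rose and 3, 4 and 2 fell. The fallen shares were 28.6% to 57.1%, of only 7 genes, against 27.3% to 38.8% of all genes. The risen shares were 0% to 14.3%, against 23.5% to 30.9% of all genes. The median difference was -0.38, -0.01 and -0.03 in KO and -0.20, -0.37 and -0.04 in WT cord at days 1, 3 and 7. Omg, a myelin glycoprotein, differed from sham by -1.02 ± 0.19 in KO and -1.02 ± 0.18 in WT cord at day 1. Lingo1, a co-receptor for these inhibitors, differed by -0.91 ± 0.21 in KO and -1.05 ± 0.22 in WT cord at day 3. Mag, another myelin inhibitor, gave -0.46 ± 0.11 in KO and -0.37 ± 0.12 in WT cord at day 3.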

How the data were processed

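Each of 34 spinal cord RNA samples was hybridised to 1 Affymetrix array, with biotinylated cRNA made from Trizol-extracted RNA, per the labels' protocols. On the log2 scale, the authors deposited 1 value per probe set and array. The submitters' processing notes name GCRMA as the method, without a version. GCRMA adjusts background by probe GC content and quantile-normalises across arrays, so low values are compressed and several arrays can share 1 value. The deposited values, from 2.17 to 15.9, were used with no further normalisation, and no array equalled another.

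Of 45101 probe sets, 34945 had 1 gene symbol and 34741 of them were matched to a table of assembly GRCm38.p6 for names. A gene was read from its probe set with the highest mean and tested if above log2 4 on at least 4 arrays. The labels gave the groups. limma 3.58.1 under R 4.3.3 fitted 1 mean for each of the 8 groups (lmFit, then eBayes), with 15 comparisons and Benjamini-Hochberg adjustment over 11993 genes at 0.05. Precision is limited by how many arrays each group has. The code was tested on simulated data. Same-numbered samples deviated together in some pairs (r above 0.1 in 12 of 40) and not throughout, and no pairing was used. The highest mean r was 0.195, in KO against WT at day 1. Promoters are RefSeq's on GRCm38.p6. Values in full are given for the 12 members with the largest changes without overlap, the member with the smallest p in each role, and the 3 smallest p between genotypes. Sema3g, Robo4, Sema4d and Epha3 were added after their values were seen. The members, lists and tests were chosen with earlier results of these data known. Alternatives were another filter, a floor at log2 4, the mean of all probe sets, only the groups compared, median centring, the replicate block, a caudal Hox covariate, single arrays left out and, chosen after seeing the data, 4 libraries left out.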

Additional observations from a re-analysis of the deposited data

Results flagged for a closer look

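In 11 of the 208 groups of 4 or 5 arrays looked at, over 26 members, 1 array lay far from the others by Dixon's test, where chance gives about 5%. In KO cord, Efna3 read 5.55 on day 7 replicate 1 against 5.24 to 5.29 on the others, Ephb6 read 6.54 on day 7 replicate 3 against 6.20, Plxna3 read 4.54 on day 1 replicate 2 against 4.62, and Robo4 read 3.37 on day 7 replicate 1 against 3.57 to 3.59. In WT cord at day 3, replicate 2 read 9.61 for Efnb3 against 9.04 to 9.14 and 5.70 for Ephb6 against 6.14 to 6.20, and replicate 4 read 8.30 for Epha5 against 8.01 to 8.02. In WT cord at day 7, replicate 2 read 9.51 for Efnb3 against 9.14 to 9.20 and 6.09 for Robo2 against 5.91 to 5.93. Plxnc1 read 6.26 on WT day 1 replicate 1 against 6.77 to 6.97, and Epha3 read 3.67 on WT sham replicate 3 against 2.57 to 2.63.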

How the results depend on the processing

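The number of members called stayed within 1.5 times under every alternative run, except as follows. When each array's caudal Hox mean entered the fit, 9 members passed in KO against WT sham, 10 in the genotype difference at day 1 and 2 at day 7, where none passed without it, and 17 passed at day 3 against day 1 where 26 did. Without the 4 libraries that stand apart, 2 passed in KO against WT at day 1. The cause was not tested. Sema3a in KO cord at day 7 turned to 0.15 from -0.48 when all its probe sets were averaged. Of the 213 injury calls, 26 were lost with the Hox covariate, 17 with the groups compared only, 16 of 203 with the mean of all probe sets, where 1 more reversed, 13 without the 4 libraries, 11 with no filter, 3 each with centring and with values under 4 set to 4, and none of 210 with the stricter filter. Leaving out 1 array at a time gave 28 to 36 calls in KO and 32 to 41 in WT cord at day 1, 38 to 46 and 35 to 41 at day 3, and 22 to 29 and 28 to 36 at day 7. It gave 23 to 28 at day 3 against day 1, 31 to 39 at day 7 against day 3, and 0 to 0 in every comparison of the genotypes. In 14 calls the size changed by over 1.5 times without 1 array, 10 of them without WT day 3 replicate 2. The replicate block lost 2 of the 213 calls (Sema3e in KO cord at day 1, adjusted p = 0.0508, and Epha5 at day 7, adjusted p = 0.0513) and 1 of 60 between days. Same-numbered arrays correlated from -0.40 to 0.38, and the numbers were not taken as a pairing. Low signal over background limits the 17 untested members and Epha3, Robo4 and Sema3g. Epha3 and Robo4 passed the filter through injured arrays alone.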
